A study of Mus musculus with 24 samples.

Results

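The 10 genes described here are effectors of the stress response driven by the transcription factor ATF4: Atf4, Atf5, Cebpg, Ddit3, Chac1, Trib3, Sesn2, Asns, Nupr1 and Ppp1r15a. They were taken by gene name from a table of 55416 gene rows, of which 17736 had enough counts to be tested, and all 10 were among those tested. Ddit3 names 2 rows of the table. The second is at 0 in every library, and the values below are those of the first. The 10 genes were chosen by their Ethanol against Vehicle values in these same libraries. Their levels and fold changes between the groups are therefore a description, given without a test. The tests below on these genes are of other quantities: variation between runs, spread and correlation within groups. These can depend on the same ethanol response that chose the genes. Shares over all tested genes are therefore given beside them only as a description.

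Poly(A) RNA was sequenced from the cerebellum of 24 newborn C57BL/6J mice, 12 in the Ethanol group and 12 in the Vehicle group, in a model of fetal alcohol spectrum disorders. By the study's methods, Ethanol pups received 4 g/kg/day of ethanol by gavage in 20% intralipid, a fat emulsion, from postnatal day 4. Vehicle pups received the intralipid without ethanol. Tissue was taken 24 hours after the last dose, on postnatal day 5 after a single dose or on postnatal day 6 after doses on consecutive days. Both groups thus shared the strain, the emulsion and the gavage. The labels give each animal's treatment and number but not its age, sex or litter, so both ages stand together in each group, and the tissue is labelled only as brain. By the methods the pups came from 6 litters, and each litter gave a male and a female of each group. Each litter was sampled at a single age, so litter, age and number of doses are nested. Both groups thus hold both sexes. The animal numbers fall into 6 runs of 4, each with 2 Ethanol and 2 Vehicle animals. Which litter an animal belonged to is not given in the sources used here, so runs serve below only as a grouping of labels.

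ATF4 is made when kinases that sense missing amino acids, unfolded protein, viral RNA or haem loss phosphorylate the initiation factor eIF2. Most protein synthesis then slows while the upstream reading frames of the Atf4 mRNA let its own translation rise, so much of the control of ATF4 lies outside the level of its mRNA. ATF4 pairs with factors of the C/EBP family and switches on genes for amino acid supply, for signalling, and, under long stress, for cell death. In neurons and glia the pathway is known from injury, from ischemia and from loss of eIF2B function.

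ATF4 with a C/EBP partner binds a composite element, and its core as searched here is TGATGNAA. The promoter windows run from 250 bases before to 50 bases after each annotated start, in the RefSeq annotation of build GRCm38.p6, and all 10 genes matched a window. On either strand the core lay in a window of 4 of the 10 genes. The shares were 4.51% of 27025 genes with a window and 2.83% of 12661 tested genes with a window. A gene counts if any of its windows holds a match. The 10 genes were picked as effectors of ATF4, so an excess of its element among them could be foreseen and is no test. The full cAMP response element, TGACGTCA, which is the same on both strands, lay in a window of 1 of the 10 genes. The shares were 2.03% of all genes with a window and 3.29% of the tested ones. The endoplasmic reticulum stress element is CCAAT and CCACG with 9 bases of any kind between them. It lay in a window of 0 of the 10 genes, against 0.137% and 0.174% of the same genes. No searched motif overlapped another in these windows. The stretches with a match before the start site are shown because they are the letters that the factor's family is known to read, at Chac1, whose fold change was the highest of the 10, at Asns and Nupr1, and at Ppp1r15a, the 1 gene that was lower in Ethanol. Capitals mark the match, and each stretch is written in the direction of its gene. Where the core lies on the opposite strand it reads as its reverse complement.
Chac1 chr2:119351019-119351086, plus strand: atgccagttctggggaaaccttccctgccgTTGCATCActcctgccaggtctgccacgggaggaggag
Asns chr6:7693210-7693262, minus strand: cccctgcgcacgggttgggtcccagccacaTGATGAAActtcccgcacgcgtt
Nupr1 chr7:126625543-126625610, minus strand: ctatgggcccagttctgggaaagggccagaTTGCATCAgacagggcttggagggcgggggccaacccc
Ppp1r15a chr7:45526269-45526310, minus strand: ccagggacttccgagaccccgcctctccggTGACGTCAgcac
The matches begin at base -193 of Chac1, -23 of Asns, -110 of Nupr1 and -12 of Ppp1r15a, counted from the start site. The match of Trib3 begins at base 15 of the transcript and is not shown. A match says only that these letters are present, and binding was not measured.

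Libraries held 26982564 to 38804942 estimated counts in Ethanol and 29039888 to 38696615 in Vehicle. Over all tested genes 1608 were higher and 1028 lower in Ethanol. Levels are in CPM, the counts relative to the total of the library after TMM scaling. Between genes they also reflect transcript length and are not compared. Markers of granule neurons summed to 1940 to 2670 CPM in Ethanol and 1900 to 2650 CPM in Vehicle, and those of Purkinje cells to 1250 to 1510 CPM in Ethanol and 1340 to 1650 CPM in Vehicle. All 8 listed genes of each type passed the filter, so the markers of cerebellar cells were present. In 4 libraries, Ethanol X4568 and X4766 and Vehicle X4761 and X4770, the choroid plexus gene Ttr was at 1.15 to 3.57 CPM, against 322 to 5050 CPM in the other 20. The fold changes of the 10 genes without these libraries are given at the end.

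Chac1 and Trib3 had the highest fold changes of the 10. Chac1 encodes a glutathione-degrading enzyme of the gamma-glutamylcyclotransferase family. Its level ran from 4.21 over a median of 12.5 to 25.7 CPM in Ethanol animals, and from 3.03 over 3.65 to 5.61 CPM in Vehicle animals. Ethanol animals X4673 and X4674 lay within the Vehicle range and the other 10 above it. The means were 13.4 ± 6.12 and 3.78 ± 0.661 CPM (SD, n = 12 each), a 3.57-fold difference (log2 1.83, SE 0.23) that was rank 3 of all 17736 tested genes by log2 fold change. Trib3 encodes a pseudokinase that binds AKT and ATF4 itself, and its protein is known to damp ATF4 activity. It had the lowest counts of the 10, from 25 to 220 a library. Its level ran from 0.785 over 2.9 to 5.67 CPM in Ethanol, and from 1.03 over 1.19 to 1.65 CPM in Vehicle. The same 2 Ethanol animals did not exceed the Vehicle range, with X4674 below its lowest value, and the other 10 lay above it. Its means were 3.3 ± 1.59 and 1.24 ± 0.164 CPM, a 2.66-fold difference (log2 1.41, SE 0.23) at rank 13. In bulk tissue, a change in the number of cells of a type and a change in RNA per cell cannot be told apart, for these and all genes below.

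**Figure D1:**
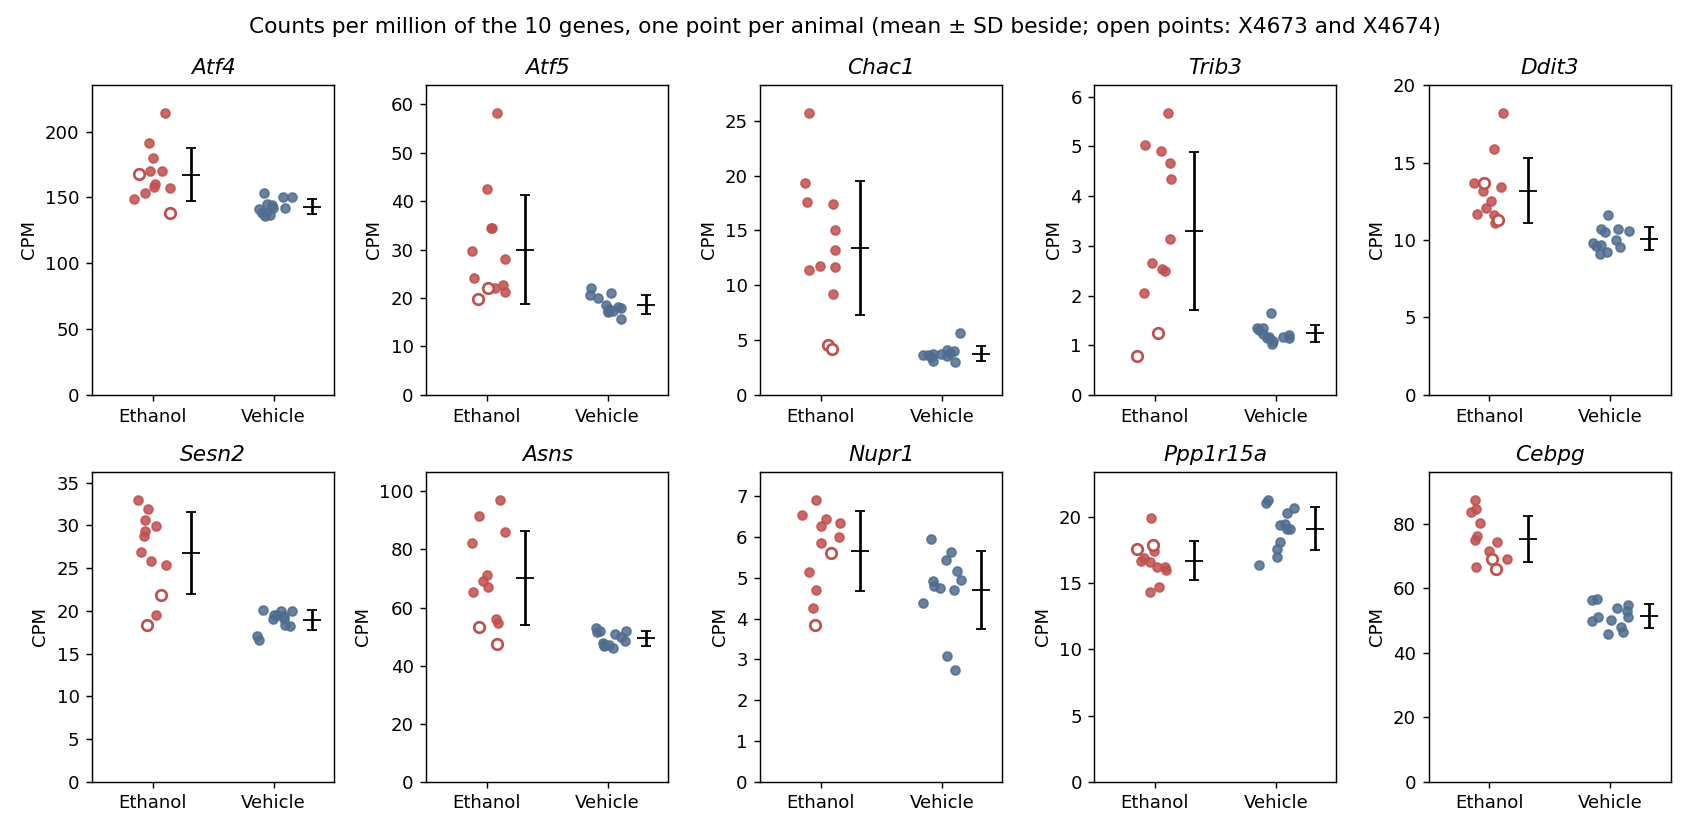
Level of each of the 10 genes in CPM (y axis, from 0) for the 12 Ethanol and the 12 Vehicle animals (x axis), 1 point per animal, with the mean and SD beside the points and open points for Ethanol animals X4673 and X4674. The groups do not overlap for Cebpg, Ppp1r15a is lower in Ethanol, and the 2 open points do not exceed the highest Vehicle animal for Chac1 and Trib3.

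The transcription factors differed less between the groups. Atf4 mRNA ran from 138 over 164 to 214 CPM in Ethanol, and from 136 over 142 to 153 CPM in Vehicle. Of the Ethanol animals 9 lay above every Vehicle animal, and X4674, X4681 and X4760 did not. The difference was 1.17-fold (log2 0.22, SE 0.05). Atf5 encodes a related factor whose translation is also controlled through eIF2 and which is tied to mitochondrial stress. It ran from 19.9 over 26.1 to 58.2 CPM in Ethanol, and from 15.6 over 18.1 to 22.1 CPM in Vehicle, a 1.61-fold difference (log2 0.68, SE 0.15). Ethanol animals X4569, X4674 and X4683 overlapped the Vehicle range, and X4760 was the highest.

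Cebpg encodes a C/EBP factor that pairs with ATF4. It ran from 66.1 over 74.6 to 87.4 CPM in Ethanol, and from 45.8 over 51.1 to 56.6 CPM in Vehicle, so that every Ethanol animal lay above every Vehicle animal. It was the 1 gene of the 10 without overlap, and 0.124% of all tested genes (22) had the same order. The means were 75.3 ± 7.26 and 51.4 ± 3.63 CPM (SD, n = 12 each), a 1.46-fold difference (log2 0.55, SE 0.05). Ddit3 encodes CHOP, a C/EBP family factor known for promoting death under lasting stress. It ran from 11.1 over 12.8 to 18.2 CPM in Ethanol, and from 9.09 over 9.9 to 11.6 CPM in Vehicle, a 1.31-fold difference (log2 0.39, SE 0.07) with overlap in X4569, X4674 and X4681.

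Asns and Sesn2 stand for the metabolic side of the response. Asns makes asparagine from aspartate and glutamine. It ran from 47.4 over 68.1 to 97.1 CPM in Ethanol, and from 45.9 over 49.1 to 53 CPM in Vehicle, with X4674 the only Ethanol animal inside the Vehicle range. Its difference was 1.42-fold (log2 0.51, SE 0.10). Sesn2 encodes a leucine sensor that restrains mTORC1. It ran from 18.4 over 27.9 to 33 CPM in Ethanol, and from 16.6 over 19.2 to 20.1 CPM in Vehicle, also 1.42-fold (log2 0.50, SE 0.08), with X4674 and X4766 in the Vehicle range.

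Nupr1 and Ppp1r15a stood apart from the rest. Nupr1, a small stress-induced nuclear protein, ran from 3.83 over 5.92 to 6.91 CPM in Ethanol, and from 2.73 over 4.86 to 5.95 CPM in Vehicle. Only 6 Ethanol animals exceeded the Vehicle range, and the difference was 1.2-fold (log2 0.27, SE 0.11). Ppp1r15a encodes GADD34, the stress-induced phosphatase subunit that removes the phosphate from eIF2 and so closes the loop. It was lower in Ethanol, at 14.3 over 16.7 to 19.9 CPM, against 16.4 over 19.3 to 21.3 CPM in Vehicle, 0.873-fold (log2 -0.20, SE 0.05). The groups overlapped, and 1 of 12 Ethanol animals lay above the Vehicle median.

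Over the 10 genes, 9 were higher and 1 lower in Ethanol, with a median log2 fold change of 0.51 against -0.0057 over all tested genes. At an adjusted p under 0.05 (edgeR), 8 were among the 9.07% of tested genes called higher and 1, Ppp1r15a, among the 5.80% called lower, and Nupr1 was in neither set. The genes were chosen on this contrast, so nothing is read from these counts. With upper-quartile scaling the calls over all genes were 1373 higher and 1396 lower, in place of 1608 and 1028, and the median over all genes was -0.0193. None of the 10 changed direction under any of 40 alternative scalings, filters, tools and left-out libraries. Leaving out run 1 ended the call of Ppp1r15a, and leaving out run 2 brought the number called higher to 9.

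The animals were not alike. Ethanol animal X4692 had the highest value of its group for 6 of the 10 genes, and X4760 for 3. X4674 had the lowest for 7.

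The observed size of the difference varied by run of animal numbers, with 2 animals per group in each run. Whether it did so beyond the animals within a run is tested below. In run 2, which holds X4673 and X4674, the median log2 difference over the 10 genes was 0.07, and 6 of the 10 lay above 0. In the other 5 runs the median was 0.36 to 0.72, with 9 of the 10 above 0 in each. Over all tested genes the run medians were -0.006 to 0.007. The 10 genes were chosen on this contrast in the same libraries, so nothing is read from the agreement in sign. Chac1 averaged 4.4 CPM in Ethanol and 3.94 CPM in Vehicle in run 2, but 22.5 CPM in Ethanol and 3.53 CPM in Vehicle in run 4. Asns averaged 50.4 CPM in Ethanol and 50.7 CPM in Vehicle in run 2, but 94.4 CPM in Ethanol and 49.4 CPM in Vehicle in run 5. Trib3 and Nupr1 were lower in the Ethanol animals of run 2, by log2 values of -0.34 and -0.26. Not all of the 10 shared this: in run 2 Cebpg still averaged 67.6 CPM in Ethanol and 50.7 CPM in Vehicle, a log2 difference of 0.42 within a range over runs of 0.42 to 0.69. Ddit3 had a log2 difference of 0.28 there, within a range of 0.16 to 0.74. The run with the highest difference also varied by gene. Chac1, Atf4 and Ddit3 had theirs in run 4 (log2 2.64, 0.47 and 0.74), and Atf5, Trib3, Asns, Sesn2, Nupr1 and Cebpg in run 5 (1.45, 2.02, 0.93, 0.72, 0.72 and 0.69), where Atf4 stood at 0.11.

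**Figure D2:**
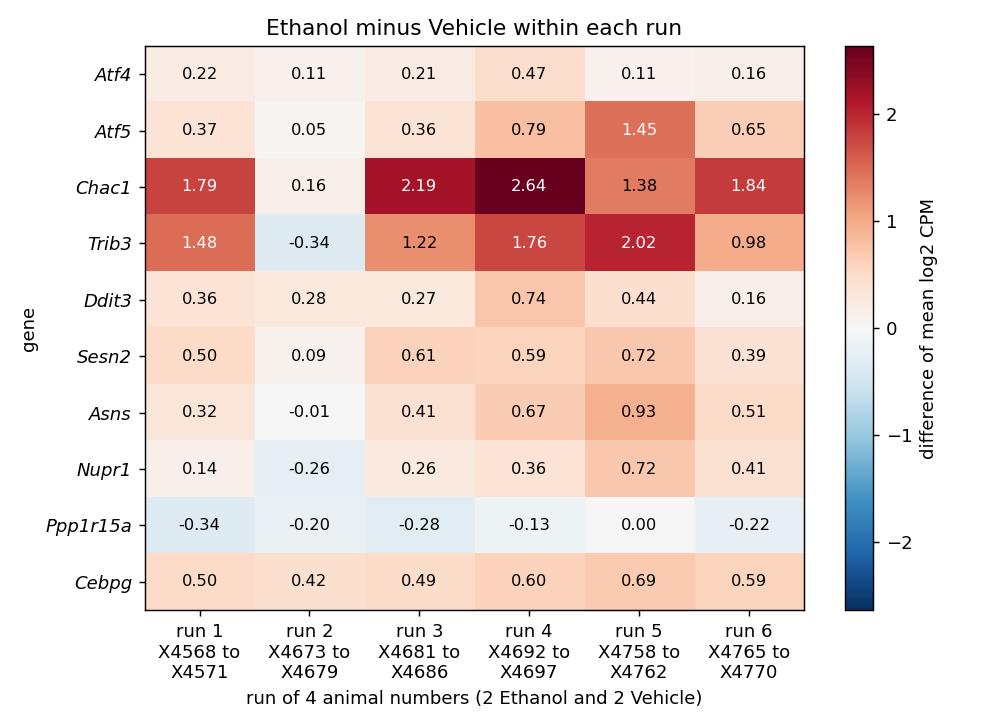
Difference of mean log2 CPM, 2 Ethanol minus 2 Vehicle animals, for each of the 10 genes (rows) in each of the 6 runs of animal numbers (columns), with red for higher and blue for lower in Ethanol. Run 2 is pale for Chac1 (0.16), Asns (-0.01) and Atf5 (0.05), and Cebpg is at 0.42 to 0.69 in every run.

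Whether the difference varied between runs by more than the animals within them was tested in edgeR with run by treatment terms. The genes were not chosen on these terms, but the terms may not be independent of that choice. Over all tested genes 12 passed, 0.0677%, and 0 of the 10 genes did. Chac1 was nearest (F = 10.4, p = 0.000112, adjusted p = 0.0992), followed by Trib3 (p = 0.00159, adjusted p = 0.276), Atf5 (p = 0.00962, adjusted p = 0.564) and Asns (p = 0.0113, adjusted p = 0.589). With limma-trend Chac1 passed, at an adjusted p of 0.0396. At an unadjusted p under 0.05 these 4 of the 10 passed, as did 6.0% of all tested genes (1064 of 17736). With 2 animals per group in a run, a difference that misses the threshold does not show that the runs were alike.

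Most of the 10 genes varied more among Ethanol than among Vehicle animals. The SD of log2 CPM of Trib3 was 0.845 in Ethanol and 0.171 in Vehicle, a ratio of 4.94 that was rank 8 of the 17736 tested genes. For Asns the SDs were 0.333 and 0.0706 (ratio 4.71, rank 10), for Chac1 0.778 and 0.224 (ratio 3.47, rank 41), and for Atf5 0.469 and 0.145 (ratio 3.25, rank 68). Sesn2 and Atf4 had ratios of 3.01 and 3. Over all tested genes the median ratio was 1.12. Those genes, unlike the 10, were not chosen for a difference between the groups. A two-sided permutation test of each ratio (100000 resamples, n = 12 each) gave an unadjusted p under 0.05 for these 6 of the 10, from 0.00061 for Trib3 to 0.0171 for Chac1, and 2.87% of all tested genes (509) were wider in Ethanol at that level. After adjustment over all tested genes 0 genes passed (0.00%), and the adjusted p was 0.999 for each of the 10. By the methods each group mixes 2 ages, and only the Ethanol animals differ in the number of ethanol doses. The part of age and dose number in the spread was not tested. The permutation also treats the 12 animals of a group as independent, although they came from 6 litters.

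The spread was not shared by every gene. Ddit3 had a ratio of 2.06 (permutation p = 0.0774) and Cebpg of 1.35 (p = 0.18), whose SDs were 0.138 in Ethanol and 0.102 in Vehicle. Ppp1r15a had a ratio of 1.03 and Nupr1 of 0.798. Between the 2 animals of the same run and group, the ratio was 3.24 for Atf5, 2.59 for Asns, 2.54 for Chac1, 2.36 for Trib3, 2.24 for Sesn2 and 1.87 for Atf4. By an exact permutation test over the 12 within-run differences, p was 0.0238 for Atf5, 0.0368 for Atf4, 0.039 for Trib3 and for Sesn2, 0.104 for Asns and 0.108 for Chac1. The ratios over all animals depended on which were kept. Without run 2 the ratio was 1.81 for Chac1 (permutation p = 0.156), 2.21 for Sesn2 (permutation p = 0.171) and 2.81 for Trib3 (permutation p = 0.0012). Chac1 stood at 3.36 without run 1 (permutation p = 0.0563), 2.95 without run 4 (permutation p = 0.0728) and 6.55 without run 5 (permutation p = 0.00032). Atf5 stood at 3.39 without run 4 (permutation p = 0.0704), and Sesn2 at 5.13 without the 4 libraries low in Ttr (permutation p = 0.0008). Ddit3 moved both ways, to 1.1 without run 4 (permutation p = 0.711), 2.52 without run 6 (permutation p = 0.0257) and 2.64 without the libraries low in Ttr (permutation p = 0.0359).

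**Figure D3:**
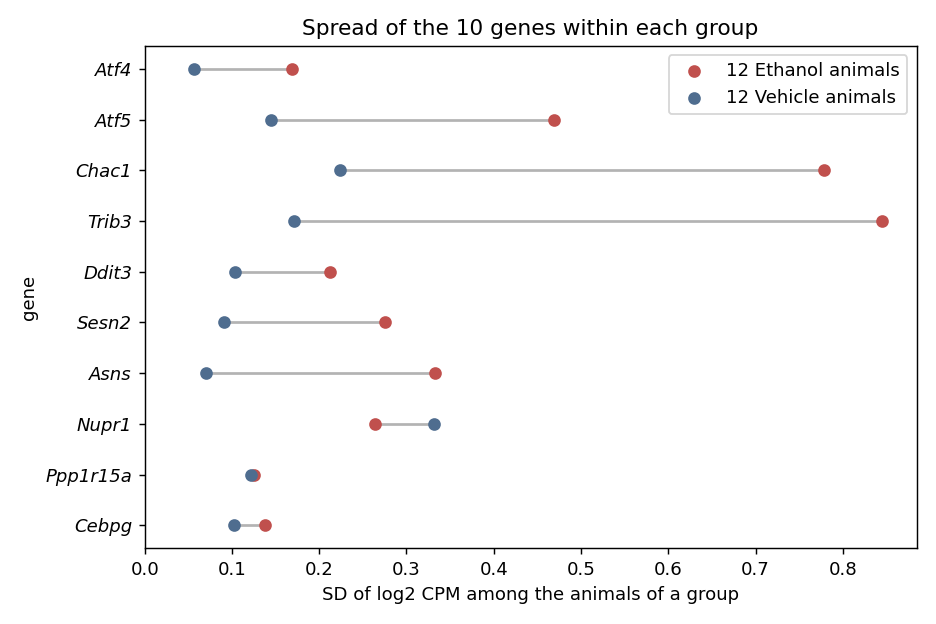
SD of log2 CPM (x axis) among the 12 Ethanol animals (red) and the 12 Vehicle animals (blue) for each of the 10 genes (y axis). The gap is widest for Trib3 (0.845 and 0.171), and Nupr1 is the 1 gene with the higher SD in Vehicle.

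Within the Ethanol group, animals high in 1 of these genes tended to be high in others. Of the 45 pairs, 41 had a Pearson correlation above 0, with a median r of 0.52, against 24 pairs and a median of 0.03 in the Vehicle group. At an unadjusted permutation p under 0.05, 17 of 45 pairs were positive and 0 negative in Ethanol, where 3.55% of the correlations of these genes with all tested genes were positive at that level. In Vehicle 2 pairs were positive and 2 negative, against 4.18% positive over all genes. After adjustment over the 177305 correlations of a group, 0 passed (0.00%) in either. Both genes of a pair are measured in the same library and share its scaling. The difference between the groups was not tested. Nor was the part of age, number of ethanol doses or litter in these correlations, since the labels give none of them.

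Atf5 and Asns had the highest correlation in Ethanol (r = 0.90, rho = 0.92, permutation p = 3e-05 and 8e-05, adjusted p = 0.148, n = 12). Without the 2 animals farthest from the median of Atf5 it was 0.91, and without run 2 it was 0.90. Asns ranked 6 among all tested genes by its correlation with Atf5. Trib3 and Sesn2 stood at r = 0.90 (rho = 0.85, permutation p = 0.00017 and 0.00086, adjusted p = 0.378), and at 0.80 without X4673 and X4674, the animals of run 2. Atf4 and Ddit3 stood at r = 0.87 (rho = 0.79, permutation p = 0.00035 and 0.00336, adjusted p = 0.451), at 0.71 without the 2 farthest animals, and at 0.97 with the mean of each run removed. Among all tested genes, Atf4 ranked 1 by its correlation with Ddit3.

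Leaving out run 2 lowered other pairs. Chac1 and Trib3 had r = 0.86 (rho = 0.67, permutation p = 0.00074 and 0.0197, adjusted p = 0.486), 0.53 without X4673 and X4674 (permutation p = 0.113), and 0.89 with the mean of each run removed. Chac1 and Sesn2 had r = 0.80 (rho = 0.78, permutation p = 0.00322 and 0.00373, adjusted p = 0.599), 0.59 without them, and 0.76 with run means removed. Atf4 and Chac1 went the other way, with r = 0.70 (rho = 0.81, permutation p = 0.0115 and 0.0023, adjusted p = 0.693) over all 12, 0.90 without run 2, and 0.38 without X4674 and X4692. Without run 2, and likewise without run 4, 7 of 45 pairs were positive at an unadjusted p under 0.05, in place of 17. Ppp1r15a had a correlation between -0.45 and 0.33 with each of the other 9. In Vehicle the highest was that of Sesn2 with Nupr1 (r = 0.74, rho = 0.27, permutation p = 0.013 and 0.391, adjusted p = 0.595), which was -0.26 without X4761 and X4770, both low in Ttr.

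**Figure D4:**
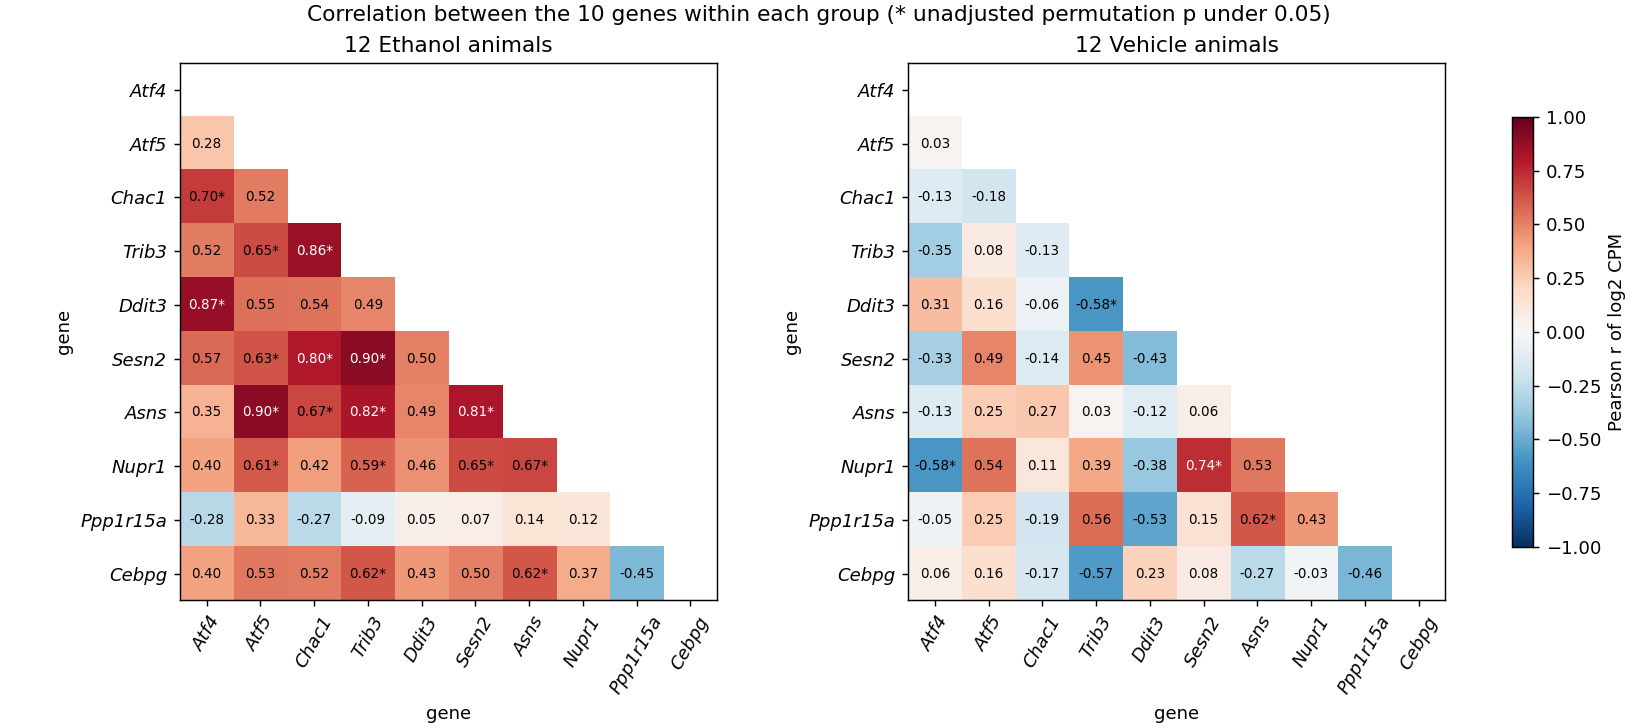
Pearson r of log2 CPM for each of the 45 pairs of the 10 genes (both axes), in the 12 Ethanol animals (left) and the 12 Vehicle animals (right), with red for positive, blue for negative and a star at an unadjusted permutation p under 0.05. Stars are on 17 pairs in Ethanol, all positive, and on 4 in Vehicle.

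The genes whose pattern over the 24 animals was most like that of Chac1, once the mean of each group was removed, were Eif4ebp1 (Spearman 0.75), Stc2 (0.72), Celf6 (0.66), Rab6b, Rasal3 and Peli3 (0.64 each), AA414768, Pck2 and Asic1 (0.63 each) and Gramd3 (0.62), among the 15514 tested genes whose log2 CPM averaged 0 or more. By Spearman correlation none of the other 9 genes described here was among them. The nearest were Asns (0.56, rank 40) and Trib3 (0.51, rank 101), and Ppp1r15a was at -0.14. The list depends on the measure. By Pearson correlation Trib3 (0.80, rank 2) and Sesn2 (0.71, rank 9) were among the 10 most alike, and Asns stood at 0.65 (rank 30). By the same measure Pck2 ranked 1, Stc2 4 and Eif4ebp1 6, and the other 7 ranked between 93 and 2485. Eif4ebp1, which encodes a translation repressor under mTORC1, averaged 7.78 ± 2.32 CPM in Ethanol and 3.96 ± 0.496 CPM in Vehicle (SD, n = 12 each).

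Around the 10 genes, further lists of the pathway were counted in the same edgeR fit with Benjamini-Hochberg adjustment over all tested genes. They were written with earlier results of these data known. In all, 40 of 173 listed genes were higher in Ethanol and 2 lower, against 9.07% and 5.80% of all tested genes, and none of the 10 is in these lists. Each call was repeated under the 40 alternatives, and those lost in 10 or more are named below with that number.

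Genes upstream of ATF4 are set beside the shares of all tested genes, 9.07% higher and 5.80% lower, and nothing is read from so small a count. Of 27 tested eIF2 kinases, subunits, exchange factors and phosphatase partners, 1 was higher and 0 were lower, with a median log2 fold change of -0.02. The 1 was Eif1, an initiation factor for start codon choice, at 305 ± 21 CPM in Ethanol and 275 ± 13.7 CPM in Vehicle (log2 0.15, SE 0.03, adjusted p = 0.00376, n = 12 each by edgeR). The PERK gene Eif2ak3 had a log2 fold change of -0.03 (SE 0.03) and the GCN2 gene Eif2ak4 of -0.04 (SE 0.03). These are mRNA levels, and phosphorylation was not measured.

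The paralogs of the 10 genes gave 4 higher and 1 lower of 18, beside 9.07% and 5.80% of all tested genes. Nothing is read from so small a count, and Atf3, Cebpb and Trib1 are counted again among the other targets below. Atf3, a factor that ATF4 induces, rose to 3.09 ± 0.74 CPM in Ethanol, against 1.7 ± 0.323 CPM in Vehicle (log2 0.86, SE 0.12, edgeR adjusted p = 5.45e-05), with all 12 Ethanol animals above the Vehicle median. Cebpb (log2 0.42), Trib1 (0.15) and Ppp1r15b (0.14) also rose, with the call of Cebpb lost in 10 of the 40 alternatives. Ppp1r15b encodes the constitutive eIF2 phosphatase subunit, the counterpart of the stress-induced one. Sesn3 fell by 0.11 on the log2 scale (adjusted p = 0.00696 in edgeR). Chac2, the constitutive relative of Chac1, did not pass (log2 -0.04, SE 0.06).

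Genes for amino acid supply are set beside the same shares of all tested genes, 9.07% higher and 5.80% lower. As these lists were written with earlier results known, their counts are a description. Of 23 targets in amino acid synthesis and import 13 were higher and 0 lower, with a median of 0.21. Mthfd2, a mitochondrial folate enzyme, rose to 37 ± 8.07 CPM in Ethanol, against 20.7 ± 1.21 CPM in Vehicle (log2 0.84, SE 0.09, edgeR adjusted p = 5.09e-06). Gpt2, which makes alanine, had a log2 fold change of 0.32, the glutamine carrier Slc38a2 one of 0.26, and Pck2, the mitochondrial PEP carboxykinase, one of 0.62 (edgeR adjusted p = 8.7e-05, 0.000109 and 0.000113). Of the 13, the calls of Slc1a4, a carrier of neutral amino acids, and Phgdh, the first enzyme of serine synthesis, were lost in 11 and 17 of the 40 alternatives. Of 13 aminoacyl-tRNA synthetases, which charge tRNAs, 10 were higher and 0 lower, with a median of 0.12. Those with the smallest p were Iars (log2 0.33, edgeR adjusted p = 7.83e-08), Mars1 (0.19), Cars (0.27) and Yars (0.18).

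Of 29 other targets 10 were higher and 1 lower, with a median of 0.06, beside 9.07% and 5.80% of all tested genes. Herpud1, which serves the removal of misfolded proteins from the endoplasmic reticulum, had a log2 fold change of 0.34 (edgeR adjusted p = 3.07e-05) and Eif4ebp1 one of 0.98 (5.6e-05). Atf3 was again among those with the smallest p, as was Stc2, a secreted glycoprotein (0.63, adjusted p = 0.000696). Pmaip1, which encodes the death protein NOXA, fell by 0.26 on the log2 scale (adjusted p = 0.0389), a call lost in 16 of the 40 alternatives. The secreted hormone gene Fgf21, a known target of ATF4, was under the count filter. It had 0 to 75 counts a library in Ethanol (median 12, total 246) and 0 to 2 in Vehicle (median 1, total 13). The 2 Ethanol animals within the Vehicle range were X4673 with 2 counts and X4674 with 0. In the edgeR fit without a filter, over 35040 genes, its log2 fold change was 4.11 (SE 0.72, adjusted p = 0.000966). Gdf15, another secreted target, had 37 counts in all in Ethanol and 46 in Vehicle.

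Other stress lists are set beside the same shares of all tested genes, 9.07% higher and 5.80% lower. With lists of this size, no result is read from counts near these shares. Of 21 genes of the ATF6 and XBP1 arms of the unfolded protein response, 2 were higher, Xbp1 (log2 0.14) and Edem1 (0.09), and 0 lower, with a median of -0.01. The call of Edem1 (edgeR adjusted p = 0.0458) was lost in 25 of the 40 alternatives. The chaperone gene Hspa5 averaged 331 ± 46.2 CPM in Ethanol and 349 ± 22.5 CPM in Vehicle (log2 -0.07, SE 0.06). Of 27 genes around sestrins and mTORC1, 3 were higher (Eif4ebp1, Tsc1 and Ddit4) and 1 lower (Sesn3), and that of Ddit4 was lost in 10 alternatives. Of 15 genes of glutathione turnover, the pathway of Chac1, 0 passed in either direction by edgeR, and 1 had an unadjusted p under 0.05 (Gclm, log2 -0.08). Of 14 mitochondrial stress genes 2 were higher, Dnaja3 (0.17) and Hspa9 (0.07), and 0 lower. The call of Hspa9 (edgeR adjusted p = 0.0474) was lost in 27 of the 40 alternatives.

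**Figure D5:**
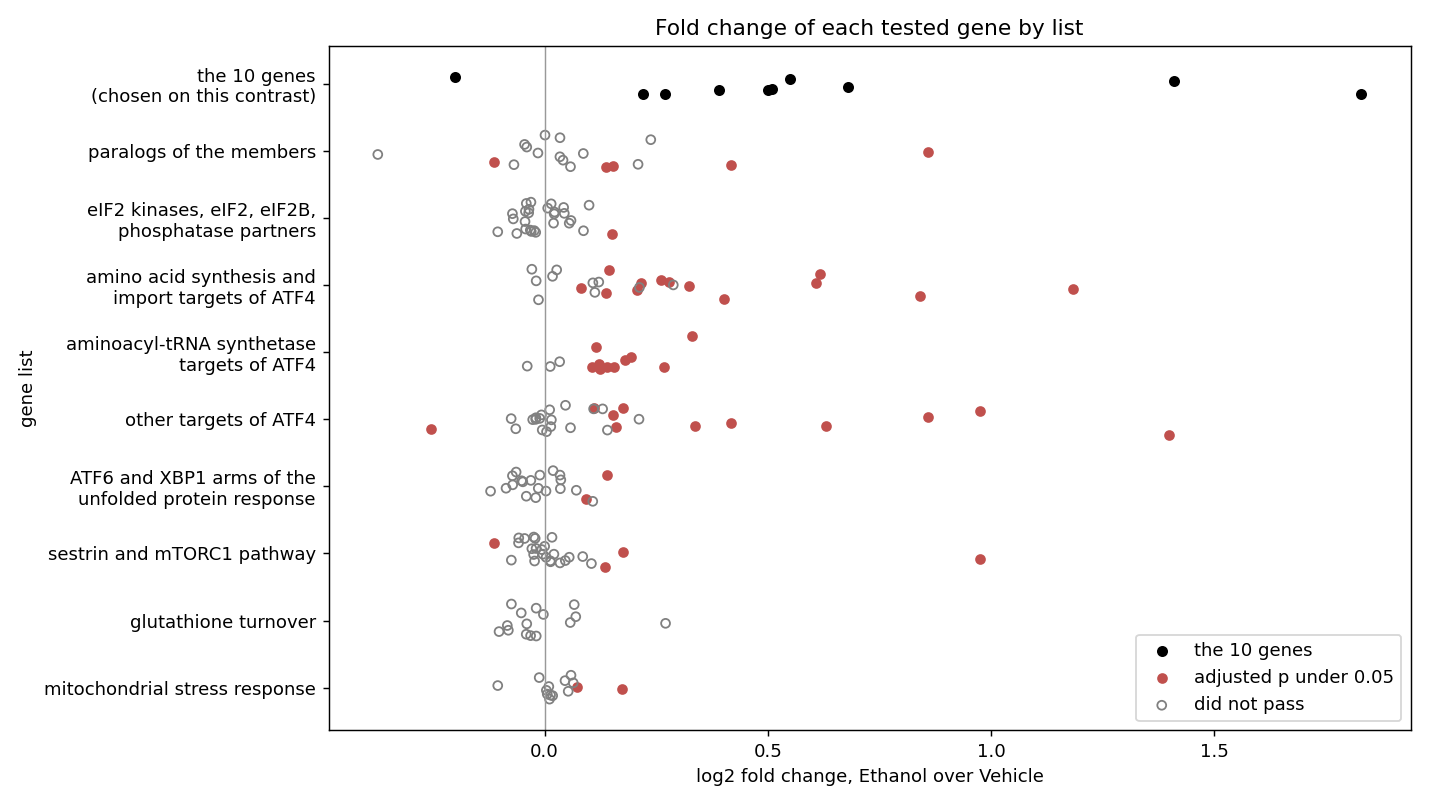
Log2 fold change, Ethanol over Vehicle (x axis), of each tested gene of the pathway lists (y axis), with filled red points for those at an adjusted p under 0.05 and open points for the rest, and the 10 genes in black on the top line, which were chosen on this contrast. Filled points lie to the right of 0 in the amino acid and aminoacyl-tRNA synthetase lists (13 and 10 genes), and there are none for glutathione turnover.

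Markers of other cells are set beside the same shares of all tested genes, 9.07% higher and 5.80% lower. With lists of this size, no result is read from counts near these shares. Of 10 markers of astrocytes and Bergmann glia 5 were higher and 2 lower, Gdf10 and Hopx. The 10 summed to 4500 to 5030 CPM in Ethanol and 4070 to 4740 CPM in Vehicle. Of 10 microglia markers 4 were higher and 2 lower (180 to 281 CPM in Ethanol, 166 to 230 CPM in Vehicle), and of 10 endothelial and pericyte markers 0 were higher and 5 lower (517 to 619 CPM in Ethanol, 610 to 681 CPM in Vehicle). Of 8 Purkinje cell markers 0 were higher and 2 lower, Car8 (log2 -0.17, edgeR adjusted p = 0.000848) and Rora (-0.19, adjusted p = 0.0442). Of 8 markers of granule cell precursors 2 were higher, Mycn and Atoh1, and 1 lower, Barhl1 (sums of 1780 to 2080 CPM in Ethanol, 1900 to 2230 CPM in Vehicle). Of 6 tested erythroid markers 0 were higher and 1 was lower, Slc4a1, and their sum had a median of 66.2 CPM in Ethanol (23.8 to 294) and 125 CPM in Vehicle (63.4 to 252). Markers of granule neurons, the oligodendrocyte lineage and the choroid plexus gave 0 calls of 8, 10 and 10 by edgeR. The part of these cells in the values of the 10 genes was not tested. Without the 4 libraries low in Ttr the log2 fold changes were 0.24 for Atf4, 0.71 for Atf5, 0.54 for Cebpg, 0.43 for Ddit3, 1.82 for Chac1, 1.37 for Trib3, 0.50 for Sesn2, 0.53 for Asns, 0.21 for Nupr1 and -0.18 for Ppp1r15a.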

How the data were processed

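Poly(A) RNA of 24 cerebella was sequenced. The authors deposited estimated counts per gene, made with nf-core/rnaseq. STAR, Salmon, limma and the build GRCm39 are listed in the processing notes of the submitters. Their versions, the annotation release and the strand setting were not stated there or in the methods. Because 10.92% of values lay further than 0.01 from a whole number, the deposited estimated counts were rounded. An estimated count shares reads between overlapping or near-identical genes by a model, which could move low genes. Every column matched a label, and each label is a separate animal.

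The 10 genes and the lists were chosen with earlier results of these data known. All of the 10 are named. From each list the text names at most 4 genes per direction, those of smallest p past the test, or genes of high expression where none passed, and it names the 10 genes most like Chac1. Eif2ak3, Eif2ak4, Hspa5, Chac2, Gclm, Fgf21 and Gdf15 were named after their values were seen. Names were matched by symbol, then by synonym.

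The filter was filterByExpr (17736 genes kept) and the scaling TMM (factors 0.9822 to 1.013). The test was the robust quasi-likelihood F test of edgeR 4.0.16, run in R 4.3.3, with Benjamini-Hochberg adjustment and a threshold of 0.05. Log2 CPM used a prior count of 2. Spread and correlation were tested by two-sided permutation in Python 3.11.15 (100000 resamples, smallest p 1e-05). Their adjustment was planned over the 10 genes or the 45 pairs. It was instead made over all tested genes, since the genes were chosen from these data. Alternatives used DESeq2 1.42.0 and limma 3.58.1. Scripts were tested on simulated data. Age, sex and litter are not in the labels and entered no fit.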

Additional observations from a re-analysis of the deposited data

How the results depend on the processing

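The log2 fold changes of the 10 genes kept their signs under all 40 alternatives. They ranged from 1.61 to 2.02 for Chac1, 1.19 to 1.60 for Trib3, 0.52 to 0.57 for Cebpg and -0.23 to -0.16 for Ppp1r15a. With a block for run in the fit, 1982 genes were higher and 1363 lower over all genes, Chac1 stood at 1.73 and Trib3 at 1.30, and the same 8 of the 10 genes were called higher and the same 1 lower. The listed genes called higher numbered 33 to 44, against 40. Those called lower, 2 of 173, numbered 4 with upper-quartile scaling, 5 without run 2, 1 without a filter and 1 without each of runs 3, 4, 5 and 6, and 1 to 5 when single animals were left out. Over all genes the 1028 lower calls became 662 without a filter, 612 without the 4 libraries low in Ttr, 616 without run 1, 612 without run 3 and 499 without run 4. The cause was not tested. The last 4 settings hold fewer animals, as do those without run 2, 5 and 6, which gave 915, 821 and 826 lower calls. For the difference between runs, limma-trend gave 1 of the 10 genes in place of 0.

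The number of genes with a wider spread in Ethanol at an unadjusted p under 0.05 was 4 to 7 under the alternatives, against 6. The SD ratio of Ppp1r15a, 1.03, was 0.899 with run means removed, 0.845, 0.872 and 0.963 without run 1, 5 and 6, and 0.798 without the Ttr-low libraries. That of Nupr1, 0.798, was 1.08 without run 5 and 1.92 without the Ttr-low libraries. None of these ratios passed the test. The 17 positive pairs in Ethanol became 7 without run 2 and 7 without run 4. In Vehicle the 2 positive pairs became 1 without run 2, 4 without run 3 and 0 without run 5. The 2 negative pairs became 1 without the Ttr-low libraries, 0 without run 2, 1 without run 4, 0 without run 5 and 1 without run 6. With run means removed only 6 independent differences a group are left, so correlations were then given with no count of pairs. Trib3, with 25 to 220 counts a library, is the gene whose values depth limits first among the 10.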
